A study of Homo sapiens with 2 samples.

Results

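The G1 cyclins, the kinases they switch on and the phosphatase CDC25A were compared between H6c7 cells carrying a K-ras oncogene and parental H6c7 cells. The group holds 10 genes of the 11963 that the array annotation names without ambiguity: CCND1, CCND2, CCND3, CCNE1, CCNE2, CDK2, CDK4, CDK6, CDK7 and CDC25A. They were taken by name, through every probe set whose annotation gives exactly that symbol, which yielded 17 probe sets, with 3 each for CCND2 and CDK2, 2 each for CCND1, CCNE2 and CDC25A, and 1 each for the other genes. H6c7 is an established human pancreatic duct epithelial line, known to have been immortalised with the papillomavirus E6 and E7 genes, whose products are known to disable p53 and the retinoblastoma protein. The K-ras line is H6c7 into which the oncogene was introduced, and the sources used here give neither its allele and vector nor whether it is a clone, and name no vector control. Each line was measured on 1 Affymetrix U133A array, a set of 2 arrays, so the values carry no replicate error and differences between the lines could not be tested. The transcript of the introduced gene is not analysed here.

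In G1, D-type cyclins bind CDK4 and CDK6, and E-type cyclins bind CDK2. The resulting kinases phosphorylate the retinoblastoma protein, which releases E2F transcription factors and lets cells enter S phase. CDK7 is the kinase of the CDK-activating complex, and CDC25A removes the inhibitory phosphates from CDK2. Signalling through RAS and the ERK kinases is known to raise cyclin D1, and CCNE1, CCNE2, CDK2 and CDC25A are known E2F targets, so the group joins the growth signal to the start of DNA replication.

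Promoter sequences show the regulatory letters near some of these genes. The promoter table from RefSeq (GRCh38.p14) holds 6 of the 10 genes, CCND3, CCNE1, CDC25A, CDK4, CDK6 and CDK7, with 10 start sites between them. The window is the 250 bases before each start. The 3 printed here were chosen because CDC25A had an E2F site, CDK4 had the most E-boxes and CCNE1 the most GC boxes. Capitals mark every match, on either strand, to the E2F site TTTNNCGC, the E-box CACGTG bound by MYC and related factors, or the GC box GGGCGG bound by SP1, and no matches of different motifs overlap in them. CDC25A lies at chr3:48188418-48188667 on the minus strand, CDK4 at chr12:57752311-57752560 on the minus strand and CCNE1 at chr19:29811741-29811990 on the plus strand.
CDC25A: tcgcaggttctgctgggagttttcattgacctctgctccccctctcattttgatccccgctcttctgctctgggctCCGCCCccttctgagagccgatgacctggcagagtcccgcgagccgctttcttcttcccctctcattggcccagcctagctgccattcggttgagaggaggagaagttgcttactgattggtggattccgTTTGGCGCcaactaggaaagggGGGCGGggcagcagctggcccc
CDK4: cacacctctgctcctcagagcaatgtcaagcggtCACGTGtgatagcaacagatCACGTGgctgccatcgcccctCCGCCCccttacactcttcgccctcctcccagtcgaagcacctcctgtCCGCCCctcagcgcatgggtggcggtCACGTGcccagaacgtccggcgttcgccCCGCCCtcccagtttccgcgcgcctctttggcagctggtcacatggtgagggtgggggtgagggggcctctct
CCNE1: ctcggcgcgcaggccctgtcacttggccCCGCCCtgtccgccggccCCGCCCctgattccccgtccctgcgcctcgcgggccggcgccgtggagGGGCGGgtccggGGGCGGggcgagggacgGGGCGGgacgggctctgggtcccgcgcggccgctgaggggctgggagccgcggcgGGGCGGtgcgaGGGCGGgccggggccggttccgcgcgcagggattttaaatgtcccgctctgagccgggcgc

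The E2F site in CDC25A begins 44 bases before the start, and TTTNNCGC is present in 1 of the 10 windows and in 5.92% of all 35116 windows of this length. CDK4 has 3 E-boxes, which begin 216, 196 and 101 bases before its start, and CDK7 has 1 in each of its 2 overlapping windows. E-boxes are present in 6.34% of all windows. GC boxes are common, in 42.6% of all windows and 7 of these 10, with 7 of them in CCNE1 alone. These are matches of letters, and binding was not measured.

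Most of the group was lower in the K-ras line, by modest amounts. A signal counts as above background from the floor of 46.9 upwards, which is the higher of the medians of the arrays. A probe set below the floor on both arrays is not measured, and for one below it on 1 array the floor stands in for the dim signal, so that its difference is at least the fold given (a bound). Of the 17 probe sets, 15 were measured, 11 on both arrays and 4 as bounds. Of the 15, 11 were lower in the K-ras line, where 45.4% of all 12484 measured probe sets were lower. At least 2-fold lower were 4 of the 15 (CCND2, CDK2 in a pair of probe sets, and CDC25A), against 14.2% of all measured probe sets, and 0 were at least 2-fold higher, against 9.85%. At 1.5-fold, 10 of the 15 were lower, against 23.9% of all, and 0 were higher, against 23.6%. CCND3 (1.53-fold) and CDK7 (1.52-fold) passed this fold narrowly, and the count at 1.5-fold was not repeated under other scalings. The median log2 ratio of the 15 (K-ras over parental) was -0.66, and that of all measured probe sets 0.08. The 15 probe sets belong to 9 genes, so those of 1 gene are not independent values. The group was also chosen with earlier results of these data known. Since bulk RNA was measured, fewer cells in a given phase of the cycle and less RNA per cell cannot be told apart.

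**Figure D1:**
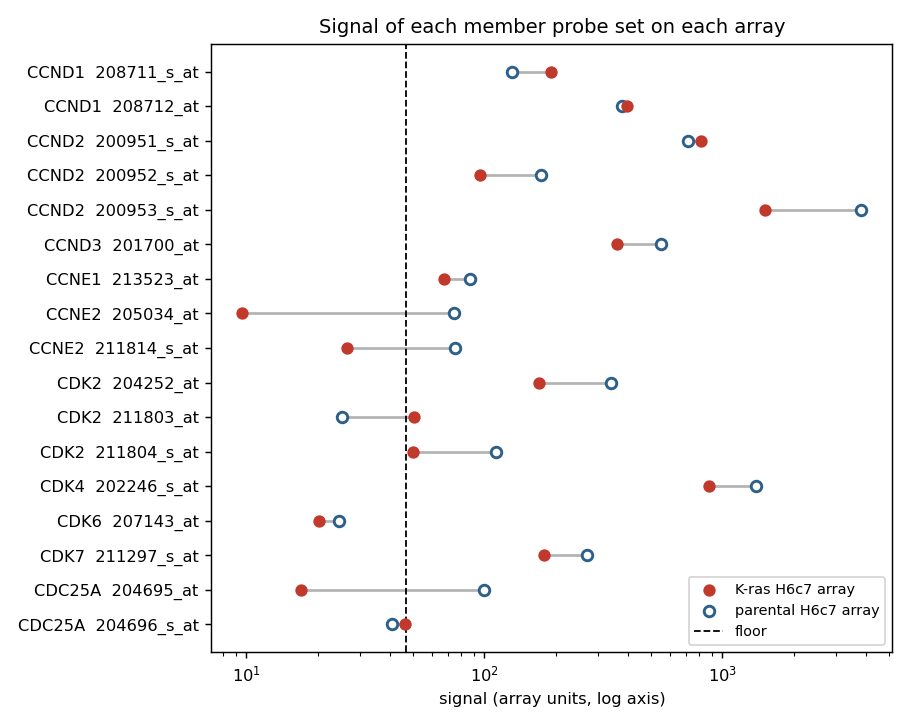
Signal of each of the 17 probe sets (rows) on the K-ras array (filled red) and the parental array (open blue), in array units on a log axis, with the floor of 46.9 dashed and 1 array per line. Most red points lie left of their blue partner, while the CCND1 points, 1 CCND2 probe set, 1 CDK2 probe set and 1 CDC25A probe set go the other way, and the CDK6 points are both left of the floor.

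When each gene was read from its probe set of highest mean log2 signal, 8 of the 10 genes were measured. CCND2 and CDK2 were at least 2-fold lower, 2 of 8, against 14.4% of 7693 measured genes, and 0 of 8 were higher, against 9.97%. The count of lower genes was 1 under quantile normalization, under scaling on 100 maintenance probe sets, with the floor as a pseudocount and with the median over the probe sets of a gene. The median log2 ratio of the 8 genes was -0.64, against 0.10 over all measured genes. CDC25A drops out of this count because its probe set with the higher mean was below the floor on both arrays. With the brighter probe set on either array, a choice made after the data were seen, 3 genes were at least 2-fold lower.

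The D-type cyclins, which carry the growth factor signal to CDK4 and CDK6, did not move as a block. CCND1, cyclin D1, had a signal of 397 on the K-ras array and 380.0 on the parental array in probe set 208712_at, a log2 ratio of 0.06. Its other probe set, 208711_s_at, gave 190.0 on the K-ras array and 130.1 on the parental array, or 1.46-fold higher. Both CCND1 values are under 2-fold, and the sign of the first turned to -0.04 when ratios were centred on their median, so it has no direction.

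CCND2, cyclin D2, gave ratios that disagreed between its probe sets. Probe set 200953_s_at, its brightest, had a signal of 1506 on the K-ras array against 3840 on the parental array, 2.55-fold lower. Probe set 200952_s_at had 95.8 on the K-ras array against 173 on the parental array, 1.81-fold lower. Probe set 200951_s_at had 813 on the K-ras array and 716 on the parental array, 1.14-fold higher. Whether CCND2 was lower thus rests on which of its probe sets is read. CCND3, cyclin D3, was seen by 1 probe set, 201700_at, with 362 on the K-ras array against 554 on the parental array, 1.53-fold lower. It was lower by less than 2-fold.

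The spread between probe sets of a gene is the nearest thing to a repeat in these data. Probe sets can read different stretches or forms of a transcript, so this spread is not a replicate error. It does not measure variation between arrays or cultures. Among the 1671 genes that had at least 2 probe sets at or over the floor on each array, the log2 ratios of a gene's probe sets had a pooled SD of 0.46. The 3 CCND2 ratios ran from -1.35 to 0.18, a range of 1.53, and 28 of the 356 genes with 3 such probe sets (7.87%) had a range at least as wide. The 2 CCND1 ratios differed by 0.48, and 461 of the 1190 genes with 2 such probe sets (38.7%) differed at least as much. The 2 CDK2 ratios of this kind differed by 0.14.

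**Figure D2:**
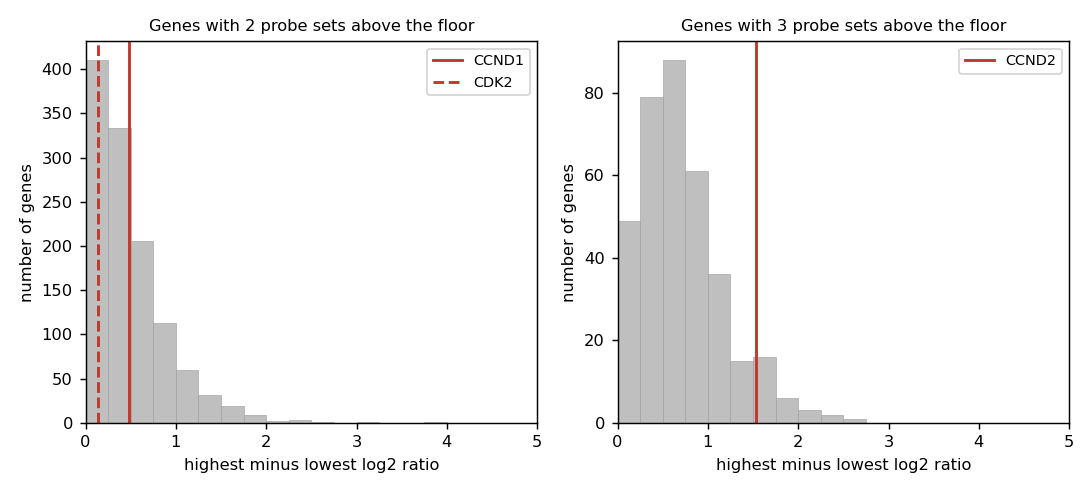
Number of genes (y axis) by the highest minus the lowest log2 ratio among their probe sets (x axis, bins of 0.25), for genes with 2 (left) and 3 (right) probe sets at or over the floor on each array. CDK2 at 0.14 and CCND1 at 0.48 lie in the bulk of the left panel, and CCND2 at 1.53 lies in the upper tail of the right panel.

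The E-type cyclins, partners of CDK2 at the start of S phase, were dim on both arrays. CCNE1, cyclin E1, had a signal of 67.7 on the K-ras array against 86.9 on the parental array in 213523_at, 1.28-fold lower and under the pooled SD between probe sets. CCNE2, cyclin E2, was below the floor on the K-ras array in both of its probe sets. In 205034_at its signal was 9.60 on the K-ras array against 74.8 on the parental array, which makes it at least 1.59-fold lower. In 211814_s_at the signal was 26.4 on the K-ras array against 75.5 on the parental array, at least 1.61-fold lower. The CCNE2 probe sets thus went the same way, and how far the difference goes beyond the bound could not be measured above the floor.

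Of the kinases that pair with D-type cyclins, CDK4 was measured and CDK6 was not. CDK4 had a signal of 874 on the K-ras array against 1382 on the parental array in 202246_s_at, 1.58-fold lower. CDK6 had 20.1 on the K-ras array and 24.6 on the parental array in its only probe set, 207143_at, both below the floor, so no ratio is given. A signal below the floor in a single probe set does not show that the CDK6 transcript was absent.

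CDK2, the partner of cyclins E and A, was lower in both probe sets that passed the floor on each array. Probe set 204252_at had 169 on the K-ras array against 341 on the parental array, 2.02-fold lower, just past 2-fold. Probe set 211804_s_at had 50.3 on the K-ras array against 112 on the parental array, 2.22-fold lower, with the K-ras signal close to the floor. The third, 211803_at, went the other way, with 50.6 on the K-ras array and 25.3 on the parental array, and was at least 1.08-fold higher. This last value is a bound at the edge of background.

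CDC25A, the phosphatase that activates CDK2, had a signal of 17.0 on the K-ras array against 99.2 on the parental array in 204695_at, at least 2.12-fold lower. Its other probe set, 204696_s_at, was below the floor on both arrays, with 46.2 on the K-ras array and 40.8 on the parental array. The lower value of CDC25A rests on 1 probe set. Its promoter, printed above, was the one of the 10 windows with an E2F site. Any link between that site and the CDC25A signal was not tested.

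CDK7, which phosphorylates the activation loop of the other CDKs and also serves in transcription factor TFIIH, had 178 on the K-ras array against 271 on the parental array in 211297_s_at, 1.52-fold lower. Its partners were lower too. Cyclin H, CCNH, had 254 on the K-ras array against 548 on the parental array, 2.16-fold lower, and the assembly factor MNAT1 had 91.3 on the K-ras array against 171 on the parental array, 1.87-fold lower. The transcripts of all 3 subunits of the CDK-activating kinase were therefore lower, in a single probe set each, and of these CCNH passed 2-fold. Of all measured probe sets 45.4% were lower, and of all measured genes 14.4% were at least 2-fold lower.

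**Figure D3:**
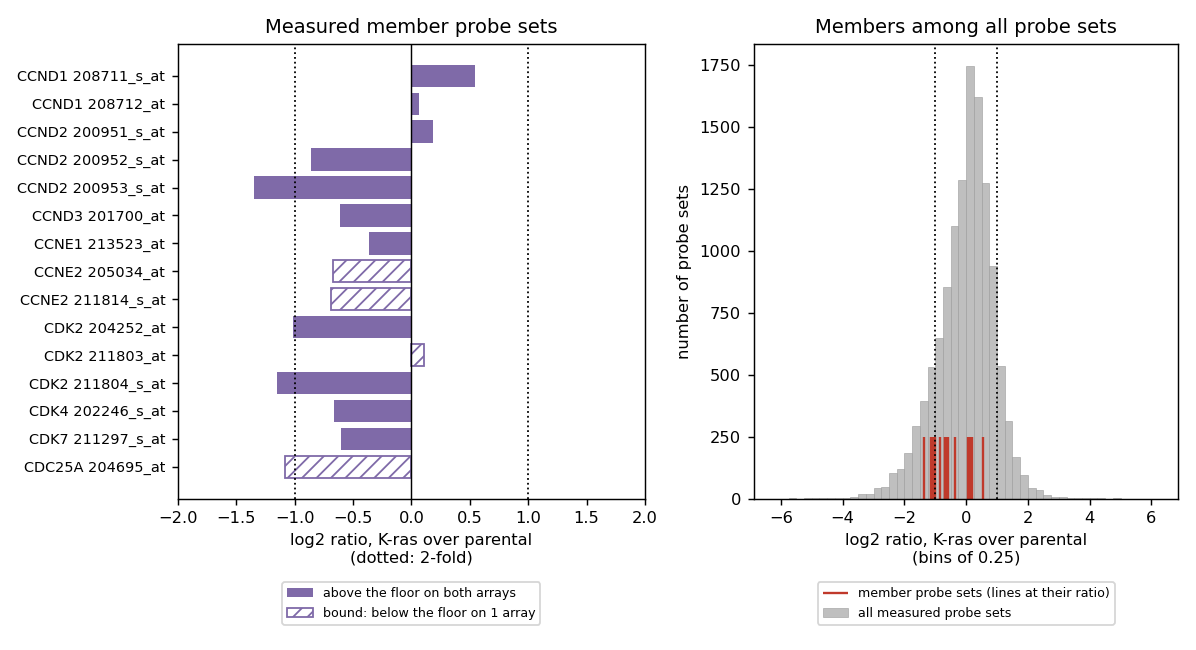
Left, log2 ratio (K-ras over parental) of the 15 measured probe sets, with hatched bars for bounds and dotted lines at 2-fold. Right, the same 15 values as red lines over the histogram of all 12484 measured probe sets in bins of 0.25, where 11 of the 15 lie below 0 and none lies beyond 2-fold on the higher side.

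Among the genes with a ratio above the floor on each array, 1 probe set per gene, CCND2 (-1.35) and CDK2 (-1.02) had the lowest log2 ratios. CDK4 (-0.66), CCND3 (-0.61) and CDK7 (-0.60) followed, and CCNE1 (-0.36) and CCND1 (0.06) were last. Steps between neighbours in this order were under the pooled SD of 0.46, so the order of neighbours is not settled. The place of CCND2 also depends on the probe set read, since its other probe sets gave -0.86 and 0.18. CDC25A (at or below -1.08 in its measured probe set) and CCNE2 (at or below -0.69) are bounds, so they have no known place in the order, and CDK6 has none.

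The measured inhibitors of these kinases had ratios on the higher side. The list used here and those that follow were chosen with earlier results of these data known. The shares of all genes given beside them are therefore descriptions only. Of 7 listed CDK inhibitors, 6 had a probe set annotated with that symbol alone and 4 were measured, with a median log2 ratio of 0.79. At least 2-fold higher were 2 and 0 were lower, against 9.97% and 14.4% of all measured genes. CDKN1A (p21), which binds cyclin E-CDK2, had 1705 on the K-ras array against 380.4 on the parental array, 4.48-fold higher. CDKN1C (p57) was 2.46-fold higher in 213348_at, with 205 on the K-ras array and 83.2 on the parental array, and at least 1.33-fold higher in 219534_x_at. CDKN1B (p27) was 1.20-fold and CDKN2A, the locus of the CDK4 and CDK6 inhibitor p16, 1.21-fold higher. CDKN2B and CDKN2D were below the floor on both arrays.

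The pocket proteins, the substrates of the G1 kinases, were dim. Of 3, RBL2 was at least 2.20-fold lower, RB1 at least 1.62-fold lower, and RBL1 was below the floor on both arrays. Of 10 listed E2F and DP factors, 9 had a probe set annotated with that symbol alone and 6 were measured, with a median log2 ratio of 0.26. At least 2-fold lower was 1 and 0 were higher, against 14.4% and 9.97% of all measured genes. The lower one was TFDP1, the main DNA-binding partner of the E2F proteins, which was 2.32-fold and 2.15-fold lower in its 2 probe sets. E2F1 had a log2 ratio of 0.18 and E2F3 of 0.33, with bounds of -0.09 and -0.98 in their other probe sets. E2F4 was 1.45-fold higher, TFDP2 1.26-fold higher and E2F6 1.57-fold lower. E2F2, E2F5 and E2F8 were below the floor on both arrays.

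Genes that act beside the group went both ways. Among 17 listed CDK partners and further CDKs, 15 were measured, and the median log2 ratio was -0.71. At least 2-fold lower were 5 and 2 were higher, against 14.4% and 9.97% of all measured genes. CDK1, the mitotic kinase, was 8.91-fold lower and its partner CCNA2, which also binds CDK2, 3.52-fold lower, with 6.51-fold in a second probe set. On the higher side, CCNA1, a cyclin A best known from germ cells, had 389 on the K-ras array against 22.0 on the parental array, at least 8.30-fold higher, and the transcription kinase CDK9 was 2.81-fold higher. The CDC25 enzymes remove the inhibitory phosphates of CDKs, and the WEE1 family adds them. Of the 4 listed here, 4 were measured and 0 passed 2-fold, where 14.4% of all measured genes were lower and 9.97% higher. CDC25B was 1.54-fold higher and CDC25C 1.51-fold lower. The 2 probe sets of WEE1 gave -0.93 and 0.02 on the log2 scale, and that of PKMYT1 gave 0.06.

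The machinery that degrades G1 cyclins and p27 had 10 of 12 genes measured, 2 at least 2-fold lower and 0 higher, with a median log2 ratio of -0.47. That share of lower genes is near the 14.4% of all measured genes. SKP2, the ubiquitin ligase subunit that targets p27, was 3.88-fold lower in an _x_at probe set, which can pick up related transcripts, and at least 2.74-fold and 3.20-fold lower in its other 2. The scaffold CUL1 was 2.63-fold lower. GSK3B, the kinase that marks cyclin D1 for export and decay, was 1.97-fold higher, and CRYAB was at least 1.74-fold higher.

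Transcripts known to be driven by E2F at S phase entry were lower by more than the G1 group itself. Of 17 listed, 16 were measured, and 11 were at least 2-fold lower and 0 higher, against 14.4% and 9.97% of all measured genes. Their median log2 ratio was -1.31, where the median of the 8 group genes was -0.64. The lowest were MCM6 at -2.99 and TYMS at -2.47, and the highest were MYBL2 at 0.43 and CDT1 at 0.01. A list of factors tied to CCND1 control and RAS signalling, not all of them known to raise CCND1, went the other way. Of 12, 11 were measured, and 6 were at least 2-fold higher and 1 lower, against 9.97% and 14.4% of all measured genes. Their median was 1.24, while CCND1 itself stayed under 2-fold. JUND was 3.94-fold and JUNB 3.18-fold higher, and CTNNB1 (2.07-fold) and EGR1 (1.39-fold) were lower. The medians describe these 2 arrays, and the difference between the lists was not tested.

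**Figure D4:**
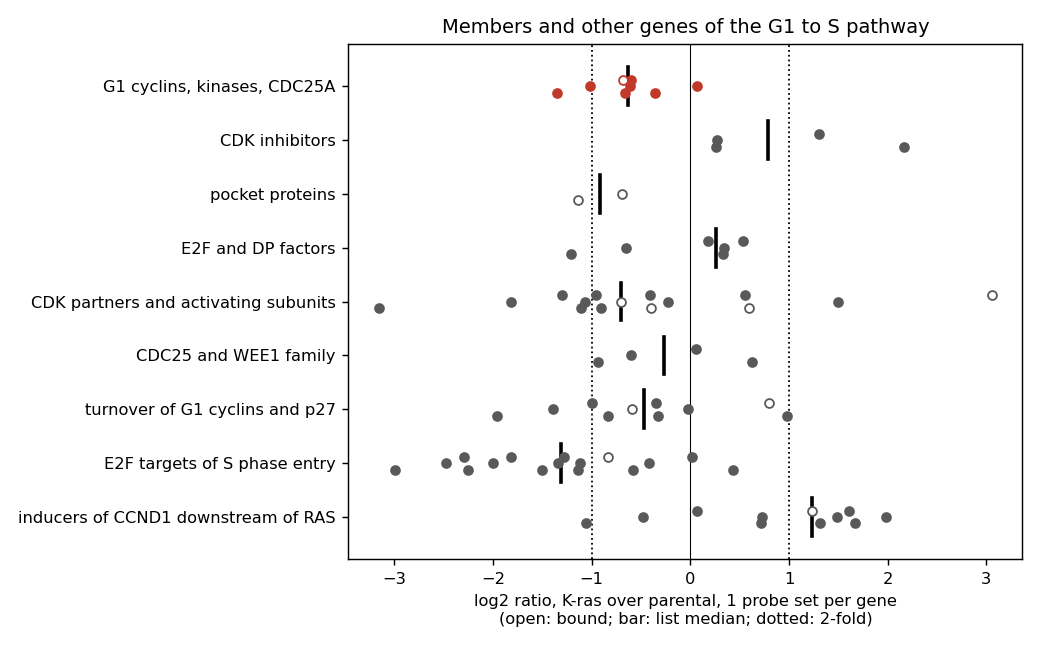
Log2 ratio (K-ras over parental, x axis) of 1 probe set per measured gene, by list (rows), with the G1 group in red, open circles for bounds, a bar at each list's median and dotted lines at 2-fold. The S phase list (median -1.31) lies furthest to the lower side. The row labelled inducers of CCND1 (median 1.24) lies furthest to the higher side, and not all of its genes are known to raise CCND1. The G1 group, at -0.64, lies between these lists.

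Signal level, RNA integrity controls and cell type markers were compared between the arrays. The median signal was 46.9 on the K-ras array and 43.9 on the parental array. Built-in probe sets for the 3′ end, middle and 5′ end of GAPDH and ACTB gave log2 ratios between 0.08 and 0.40, with 0.40, 0.30 and 0.28 along GAPDH. Epithelial markers were present, with 6 of 6 above the floor on both arrays and a summed signal of 16726 on the K-ras array and 17827 on the parental array, most of it from keratins. Of these 6, 2 were lower by at least 2-fold on the K-ras array, KRT19 (2.74-fold) and EPCAM (2.08-fold), against 14.4% of all measured genes. By that fold 0 were higher, with KRT8 at 1.84-fold higher. Some markers of other cells were below the floor on both arrays, while others were measured and are given below. Those below it included PTPRC of leukocytes, CDH5 and VWF of endothelium, and LUM and PDGFRB of fibroblasts. All 6 acinar and islet genes with a probe set annotated with that symbol alone were also below it. The summed signals on the K-ras and the parental array were 382 and 292 for 8 fibroblast genes, 151 and 109 for 6 leukocyte genes and 223 and 115 for 6 endothelial genes. Of these lists, 4 fibroblast, 2 leukocyte and 2 endothelial genes were measured, and 0 passed 2-fold. THY1 had 100.5 on the K-ras array and 51.7 on the parental array, DCN 84.3 and 59.1, COL1A1 94.6 and 131, ENG 101 and 56.8, and PECAM1 80.6 and 25.3, in the same order of arrays. COL1A2, CD2 and CD3D were just over the floor on the K-ras array and below it on the parental array. No marker in these lists was at 0, and their part in the results was not tested.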

How the data were processed

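The deposited table holds linear intensities for 22283 probe sets (68 controls), with 1 column for each array. Per the labels, cRNA was made from total RNA; no software behind the values is given in the sources used here, which leaves their exact definition unknown. The means without the lowest and highest 2% were 150.06 in both columns, so the values were taken as already scaled, and were equalised exactly. The annotation gives 19065 of the non-control probe sets exactly 1 symbol, and all 10 member symbols matched RefSeq by gene number. Log2 ratios are K-ras over parental. All 10 members are named through every probe set, with every measured CDK inhibitor, pocket protein and E2F or DP factor, CCNH, MNAT1, CDC25B, CDC25C, and the 2 highest and 2 lowest genes of each other pathway list. The members and lists were chosen with earlier results of these data known. With 1 array per group no test was possible, and precision is limited by that number of arrays. The procedure was also run on simulated data. The outcome of that run is not given here, and no value above is judged by it. The alternatives changed the scaling (as deposited, quantile, median centring, loess with span 0.3, 100 maintenance probe sets), the floor (30th or 70th percentile, none, or as a pseudocount), the fold (1.5 or 3), the use of _x_at and _s_at probe sets and the choice of probe set per gene. Tools were scipy 1.17.1, matplotlib 3.10.9, statsmodels 0.14.6, pandas 2.3.3 and numpy 2.4.6 under Python 3.11.15.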

Additional observations from a re-analysis of the deposited data

How the results depend on the processing

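Under each alternative setting, 0 probe sets and 0 genes of the group were at least 2-fold higher. CDK2 in 211803_at fell barely short, with a log2 ratio of 0.99997 with no floor and with a floor at the 30th percentile. The median log2 ratio of the group's probe sets ran from -0.76 to -0.60, against -0.66 as reported. The 4 probe sets at least 2-fold lower became 3 under quantile normalization, against 1699 of 12628 over the whole array. They became 2 with a floor at the 70th percentile, where fewer are measured, against 954 of 7737. Without _x_at and _s_at probe sets they became 2, against 839 of 5736. At 1.5-fold the count was 10 and at 3-fold it was 0, against 2980 and 741 of all 12484 measured probe sets. The 2 genes at least 2-fold lower became 1 under quantile normalization, under scaling on 100 maintenance probe sets, with the floor as a pseudocount and with the median over probe sets of a gene. They became 6 at 1.5-fold and 0 at 3-fold, and the shares of all genes at those folds were not computed. CDK2 in 204252_at was short of 2-fold under quantile normalization (-0.95), maintenance scaling (-0.97) and the floor as a pseudocount (-0.85), on the log2 scale. With the floor as a pseudocount, CDK2 in 211804_s_at (-0.71) also fell short, while CCNE2 in 205034_at (-1.11) passed 2-fold. With no floor, and with a floor at the 30th percentile, 6 probe sets were at least 2-fold lower. Over the whole array these settings gave 3400 of 22215 and 2396 of 16748. CCNE2 then passed 2-fold in both of its probe sets (-2.96 and -1.52 with no floor), and CDC25A was at -2.54 with no floor. Of 135 recomputed probe set ratios of the group, 127 moved by less than the pooled SD of 0.46. The other 8 were all bounds under those 2 floors. Part of the 127 was fixed in advance. Leaving out _x_at and _s_at probe sets changes no remaining ratio, and a lower floor changes no ratio already above the floor on both arrays. Probe sets that a setting dropped or left unmeasured are not among the 135. Over the whole array, the 1230 probe sets at least 2-fold higher became 4816 and the 1773 lower became 3400 with no floor. No paired analysis was possible because each line has 1 array. Dim signals limit what can be said of CCNE1, CCNE2, CDK6 and CDC25A.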

Other observations

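Other cyclins and CDK genes on the array, taken by their symbols after the data were seen, were mixed. Of 24 such genes 17 were measured, with a median log2 ratio of 0.00. At least 2-fold higher was 1 and 3 were lower, against 9.97% and 14.4% of all measured genes. CDK16, a kinase outside the core cycle, was 3.98-fold higher in an _x_at probe set, with 1385 on the K-ras array against 348 on the parental array, while its other probe sets gave 2.84-fold and 1.25-fold. CCNG1, a p53 target, had 106 on the K-ras array against 455 on the parental array, 4.30-fold lower, and CDKN1A, also a p53 target, was 4.48-fold higher. CCNL1, a cyclin linked to splicing, was 2.40-fold lower, and the CDK phosphatase CDKN3 was 2.23-fold lower. CCNG2, known to rise in cells leaving the cycle, gave 0.06, 0.36 and 0.99 on the log2 scale in its 3 probe sets. CCNI was 1.15-fold and 1.67-fold higher, and neither value passed 2-fold.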
